A study of Homo sapiens with 4 samples.

Results

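Among the sites bound by TRIM24 or TRIM28 in LNCaP prostate cancer cells, 541 of 74101 held a match to the consensus sequence of CTCF, a share of 0.730% (Wilson 95% confidence interval 0.671 to 0.794). The 4 deposited site lists were merged where sites overlapped by at least 1 bp, on chromosomes 1 to 22 and X. A merged site was chosen when the 200 bp of hg19 around its centre held the 20-base CTCF(Zf) consensus of HOMER on either strand with at most 3 mismatches. The rule used sequence only and no measured strength. No CTCF ChIP belongs to these data, so a match is a description of the sequence and says nothing of whether CTCF was bound there. Of the 541 sites, 1 fitted the consensus with 0 mismatches, 27 had 1 mismatch, 113 had 2 and 400 had 3.

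The study mapped TRIM24 and TRIM28 by ChIP-seq with and without androgen, with 1 sample per condition. LNCaP is an androgen-sensitive human prostate cancer line. TRIM24 was precipitated through an HA tag from LNCaP cells that stably express HA-TRIM24, and TRIM28 with an antibody against the protein itself. All cells spent 3 days in 5% charcoal-stripped serum, which removes steroid hormones, and then received either 10 nM R1881, a synthetic androgen, or ethanol for 16 h. All 4 samples are labelled wild type. The sample labels name untagged LNCaP cells for the TRIM28 ChIP, whereas the study's description of the experiment names HA-TRIM24 cells for both, so the cells used for TRIM28 are uncertain. Factor, antibody, tag and library change together between the TRIM24 and TRIM28 lists, and their parts cannot be told apart. With 1 sample per condition no test between conditions was possible, and each interval given here covers the counting of sites only, not the variation between cultures.

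CTCF is a zinc finger protein that binds a long, oriented sequence, insulates genes from distant enhancers and, together with the ring-shaped cohesin complex, holds the anchors of chromatin loops. TRIM28, also called KAP1, is brought to DNA by KRAB zinc finger proteins and recruits enzymes that silence chromatin. TRIM24, a relative with a bromodomain that reads acetylated histones, acts as a coactivator of the androgen receptor in prostate cells.

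The match and its flanks are shown for the sites on which the results turn. In each run the first 5 and last 5 bases are lower-case flank, capitals mark the bases that fit the consensus, and a lower-case base inside the match is a mismatch. All are written 5′ to 3′ on the strand of the match. The first is the site in an intron of CRTAC1, a secreted cartilage protein (chr10:99674579-99674743, match on the minus strand), the only one that fits in full. The next is a site with 1 mismatch in an intron (chr19:970771-970937, minus), 4.07 kb from an annotated start of ARID3A. Its nearest coding start, 13.5 kb away, is that of WDR18, a ribosome assembly gene. The others are the PRMT5 promoter (chr14:23398837-23399051, plus), which had the most TRIM24 tags, the CRBN promoter (chr3:3221229-3221573, plus), found in all 4 lists, the strongest TRIM28 site of unrepeated sequence (chr12:126554263-126554428, minus), a sequence shared by 6 strong TRIM28 sites of chromosome 15, and the site near HMGXB3 whose TRIM28 ratio between ligands was highest (chr5:149370356-149370618, plus).
CRTAC1: gggtcACAGTGCCATCTAGTGGCCAccatg
WDR18: tgtcgACAGcGCCACCTGGTGGCCActatg
PRMT5: gagaaACAGTGCCATCTcagGGCCAgtggc
CRBN: gggccACAGcGCCCCCTGGcGGCCccaggg
chromosome 12, beyond TMEM132B: gtgcgcTAcTGCCACCTtGTGGCCAtatgg
chromosome 15, 6 sites: gttcaACAGTGaCACCTtGTGGCaAtgagc
HMGXB3: gtccacCtGTGCCCTCTGGTGGCCAcagta

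Nearly all sites with a CTCF match were TRIM28 sites, and few were TRIM24 sites. Of the 541 sites, 537 were listed for TRIM28 with at least 1 ligand, or 99.3% (98.1 to 99.7), where 94.9% of all merged sites were. For TRIM24 the number was 24, or 4.44% (3.00 to 6.52), where 15.7% of all merged sites were listed. Sites with both factors made up 20 of the 541, against 10.6% of all merged sites, and 4 were TRIM24-only. Put the other way, a match was present in 0.827% (0.759 to 0.901) of the 62502 TRIM28-only sites, in 0.256% (0.166 to 0.394) of the 7826 sites of both factors and in 0.106% (0.0412 to 0.272) of the 3773 TRIM24-only sites. The interval of the TRIM28-only sites did not overlap those of the other 2 groups.

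The same order was found with either ligand. With ethanol, 13 of the CTCF-match sites were listed for TRIM24 (6.68% of all merged sites were) and 438 for TRIM28 (77.8% of all). With R1881, 15 were listed for TRIM24 (12.1% of all) and 262 for TRIM28 (46.1% of all). The share of a list that held the match was 0.262% (0.153 to 0.449) for TRIM24 with ethanol, 0.167% (0.101 to 0.275) for TRIM24 with R1881, 0.759% (0.692 to 0.833) for TRIM28 with ethanol and 0.767% (0.680 to 0.866) for TRIM28 with R1881. The intervals of the 2 TRIM28 shares overlapped, as did those of the 2 TRIM24 shares.

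**Figure D1:**
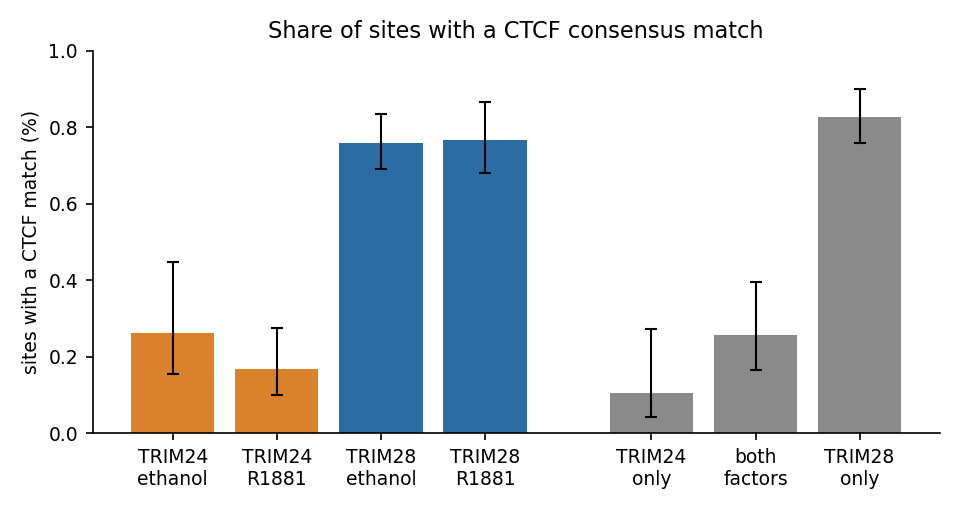
Bars give the percent of sites that hold a CTCF consensus match in each of the 4 lists (orange, TRIM24; blue, TRIM28) and by factor over both ligands (grey), with Wilson 95% intervals as error bars. TRIM28-only sites reach 0.827%, above both groups that contain TRIM24.

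The closer a match came to the consensus, the more often it carried a TRIM28 site. Chromosomes 1 to 22 and X hold 3533 matches with up to 3 mismatches, of which 541 (15.3%, 14.2 to 16.5) fell in the 200 bp window of a TRIM28 site, while those windows cover 0.496% of the assembled bases. Among matches with 1 mismatch the share was 27 of 72 (37.5%, 27.2 to 49.0). It was 112 of 487 (23.0%, 19.5 to 26.9) with 2 mismatches, 401 of 2971 (13.5%, 12.3 to 14.8) with 3 and 1054 of 19344 (5.45%, 5.14 to 5.78) with 4, which is 1 mismatch beyond the rule. Of the 3 full matches, 1 lay in a TRIM28 site.

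TRIM24 sites held 24 of the 3533 matches (0.679%, 0.457 to 1.01), and their windows cover 0.0818% of the assembled bases. None of the 72 matches with 1 mismatch (upper limit 5.07%) and none of the 3 full matches lay in a TRIM24 site. The share was 0.411% (0.113 to 1.48) with 2 mismatches, 0.740% (0.490 to 1.12) with 3 and 0.501% (0.411 to 0.611) with 4, and these intervals overlapped. The order by mismatches seen for TRIM28 was not seen for TRIM24.

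**Figure D2:**
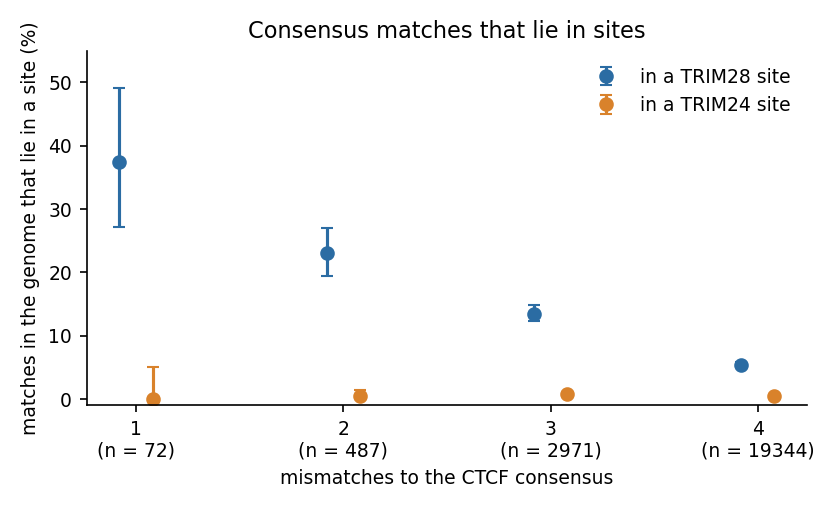
For genome matches with 1 to 4 mismatches, points give the percent that lies in the 200 bp window of a TRIM28 site (blue) or a TRIM24 site (orange), with Wilson 95% intervals and the number of matches under each group. The TRIM28 share falls from 37.5% to 5.45%, while the TRIM24 share stays under 1%.

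Matches inside and outside sites differed in where their mismatches lay. Among matches with 3 mismatches, 404 were in a site of any list and 2567 were not. Each of these has exactly 3 mismatches, so lower shares at some positions come with higher shares at others. Those in sites were more often mismatched at position 5 (34.4% against 17.1%), position 3 (30.2% against 17.5%) and position 1 (35.9% against 26.8%), counted from 1 at the 5′ end of the consensus. They were less often mismatched in the middle and at position 16, with 1.98% against 8.69% at position 8, 1.73% against 10.6% at position 11 and 0.743% against 7.67% at position 16. At position 6 the shares were 7.18% in sites and 15.9% outside. At positions 13 (10.9% against 7.01%) and 20 (20.8% against 14.5%) it was the matches in sites that were mismatched more often. At position 2 the shares were 11.6% and 9.93%.

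The mismatch at position 5 was mostly a single change. The substitution T5C, with T in the consensus and C in the site, was present in 28.5% (24.3 to 33.1) of the matches in sites and in 8.06% (7.07 to 9.18) of those outside. Before a G, this change makes a CG dinucleotide, the pair that can carry DNA methylation. A CG occurred anywhere in 35.4% (30.9 to 40.2) of the matches in sites and in 15.5% (14.2 to 17.0) of those outside. The CG shares include every CG made by T5C, so they are no separate result. In sites 143 matches had a CG and 115 had T5C, and outside these counts were 398 and 207. Whether CG differed apart from T5C was not tested. In matches whose 20 bases occur once in these chromosomes, the T5C shares were 27.9% and 7.90% and the CG shares 36.4% and 16.2%. WDR18 and CRBN, printed above, carry T5C, and the most frequent base at each position over all 541 sites reads ACAGTGCCACCTGGTGGCCA.

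**Figure D3:**
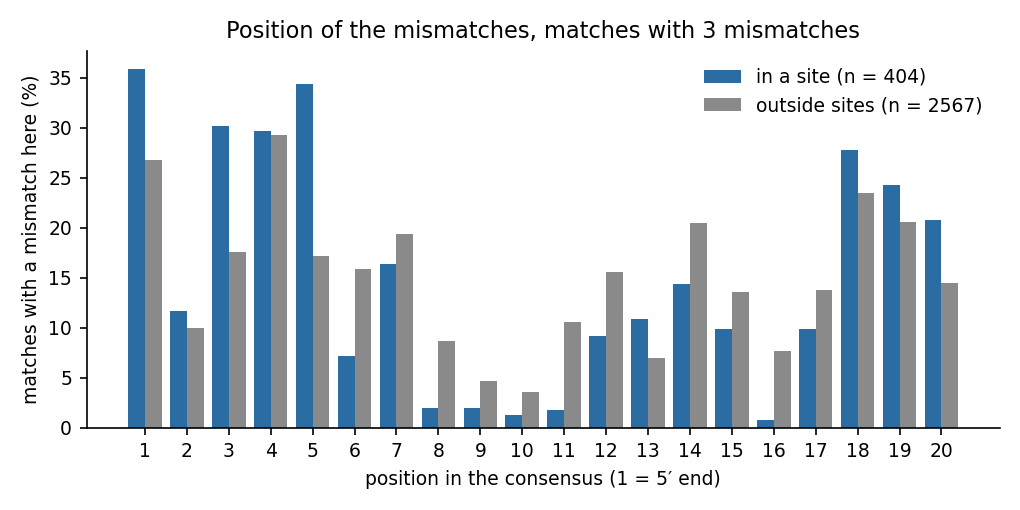
Bars give, for each of the 20 positions of the consensus, the percent of matches with 3 mismatches that are mismatched there, in sites (blue, n = 404) and outside sites (grey, n = 2567). Positions 1, 3, 5 and 20 are among those that stand higher in sites, and positions 6, 8, 11 and 16 among those that stand lower.

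The site centres were not spread evenly about the match. Read along the strand of the consensus, 357 centres lay on the 5′ side of the centre of the match, 182 on the 3′ side and 2 on it, so that 66.2% (62.1 to 70.1) of those on a side lay 5′. The median centre was 22 bp to the 5′ side, with an absolute median distance of 41 bp (36 to 44). Sites with 4 mismatches, which are no members, showed the same side in 68.5% (65.7 to 71.3) of 1059 sites. The 5′ share was 71.6% (65.9 to 76.8) for matches on the plus strand and 61.2% (55.3 to 66.7) for those on the minus strand. It was 65.0% (60.4 to 69.3) with the centres of the TRIM28 ethanol list alone and 64.1% (58.1 to 69.7) with those of the TRIM28 R1881 list. In sites without repeated sequence it was 67.1% (62.5 to 71.3).

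The rule limits the match to 100 bp on each side of the centre, so the wider surroundings of all 3533 matches were counted as well. Within 100 bp there were 562 TRIM28 site centres, 372 on the 5′ side and 190 on the 3′ side. From 100 to 200 bp there were 52 and 27, and from 200 bp to 1 kb the mean was 10.8 per 100 bp.

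**Figure D4:**
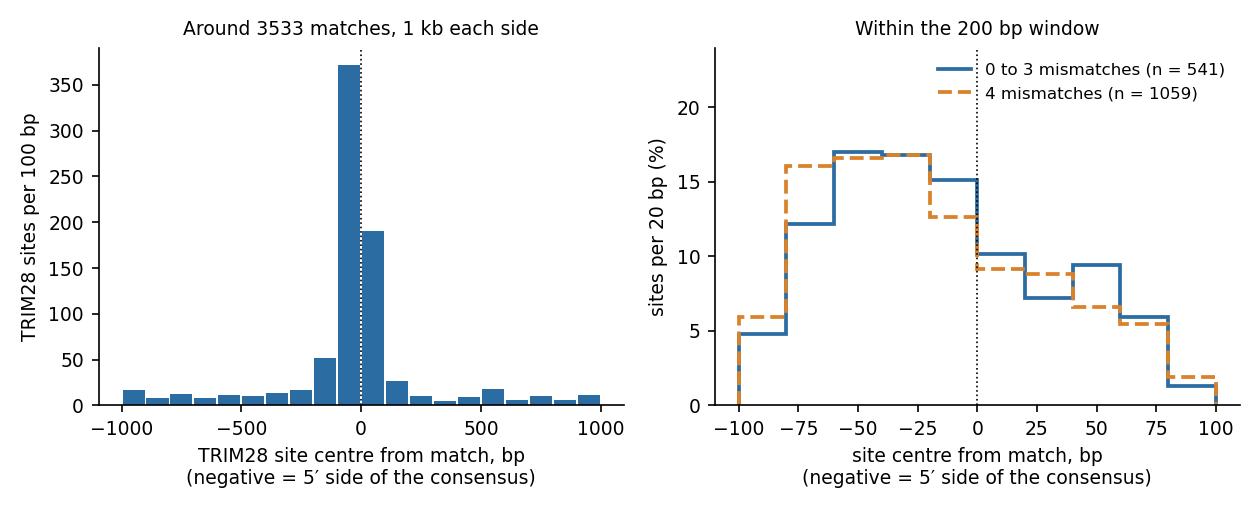
Left, TRIM28 site centres per 100 bp around all 3533 genome matches, out to 1 kb on each side, with negative distances on the 5′ side of the consensus. Right, the percent of sites per 20 bp of distance between site centre and match, for the 541 sites (solid blue) and the 1059 sites with 4 mismatches (dashed orange), where both curves stand higher on the 5′ side.

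The CTCF-match sites were of ordinary to low strength. Strength is the normalized tag count, the number of sequenced tags of a site scaled to 10000000 tags per sample. With ethanol, TRIM28 ranged from 4 to 46.5 normalized tags over 438 sites with a median of 6, where all TRIM28 sites had a median of 6.4. With R1881 it ranged from 5.6 to 47.1 over 262 sites with a median of 7, against 7.7 for all. TRIM24 ranged from 8.6 to 40.5 over 13 sites with ethanol (median 10.3, as for all TRIM24 sites) and from 6.2 to 88.5 over 15 sites with R1881 (median 7.8, against 9.3). The total tags were 11606880 and 12884097 for TRIM24 with ethanol and R1881, and 25145171 and 14231181 for TRIM28, and the file headers record a minimum of 9 tags for a site in each list except TRIM28 with ethanol, where it was 12. The normalized tag counts are not held to that minimum, since the lowest of any listed site were 6 and 5.4 for TRIM24 with ethanol and R1881 and 4 and 5.6 for TRIM28, fewer tags than the recorded minimum at these totals. Binding too weak to be listed was not detectable at this depth.

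Each list was split into 4 groups by strength. In the strongest group of the TRIM28 R1881 list the share with a match was 0.533% (0.397 to 0.714), against 0.899% (0.720 to 1.12) in the weakest. For TRIM28 with ethanol these shares were 0.571% (0.458 to 0.712) and 0.786% (0.656 to 0.942). The groups are unequal in size because many sites tie, and the intervals of the weakest and strongest group overlapped with ethanol but not with R1881. With ethanol the highest share was in the group next to the weakest (0.930%, 0.773 to 1.12), and its interval did not overlap that of the strongest. For TRIM24 with R1881 the weakest group held 11 of the 15 sites and the strongest 2. With ethanol these groups held 1 and 2 of the 13. Strength did not follow the mismatches, since the median TRIM28 value with ethanol was 6.2 for 1 mismatch, 6.4 for 2 and 6 for 3. Measured as fold over the surrounding 10 kb, the median site stood at percentile 54.6 of the TRIM28 R1881 list and 53.4 of the ethanol list. By normalized tags these percentiles were 34.0 (34.0 to 50.2) and 41.3 (41.3 to 50.4), and both intervals reach past 50. The low rank thus depends on the measure.

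With each ligand, the strongest TRIM28 site with a match was 1 of 6 near-identical copies on chromosome 15. At 6 places between 82.8 and 85.7 Mb the match and its flank were the same, and each centre lay 1.08 to 1.20 kb downstream of the start of a pseudogene of CSPG4, a cell surface proteoglycan. These were CSPG4P8, CSPG4P9, CSPG4P10, CSPG4P11, CSPG4P5 and CSPG4P12.
The copy at CSPG4P5 (chr15:84961517-84961681) had 46.5 normalized tags with ethanol and 32.3 with R1881. That at CSPG4P11 (chr15:84856579-84856748) had 45.3 and 47.1. The other 4 had 27.4 to 33.4 with ethanol and 19.7 to 30.9 with R1881. None was listed for TRIM24. Every 32-base word in their 200 bp occurs more than once in these chromosomes, so reads of 1 copy can be placed at another, and the 6 values are not independent. Over all 541 sites, 72 shared their 20 bases with another of the 541, in 28 sequences. Sites with no repeated word were 80.6% of the 541 and 69.6% of all merged sites.

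Among sites of unrepeated sequence, the strongest for TRIM28 lay between genes on chromosome 12, 447 kb beyond the start of TMEM132B, with 41.8 normalized tags with ethanol and 25.3 with R1881. TRIM24 was listed there with R1881 only, at 8.5. At DEGS2, a sphingolipid hydroxylase, TRIM28 had 19.9 and 20.4, with no TRIM24. The DEGS2 site was 0.533 kb from an annotated start of the gene and 4.41 kb from its nearest coding start. An intergenic site 151 kb from HS6ST1, a heparan sulfate sulfotransferase, had 12.7 and 16.9. Its match (chr2:129226889-129227097, minus) shares the first 18 bases with that of the chromosome 15 copies.
HS6ST1: gttcaACAGTGaCACCTtGTGGCtAcaaca
An intronic site 38.8 kb from the start of CFAP61, a cilium gene, had 12.3 and 15.5, and one 235 kb from that of LRRIQ3 had 12.7 and 14.8. These 3 were above the upper quartile of all TRIM28 sites with either ligand, which was 8 with ethanol and 9.1 with R1881.

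TRIM24 was strong at few of the sites with a match. PRMT5, an arginine methyltransferase, had 40.5 TRIM24 normalized tags with ethanol and 88.5 with R1881 at its promoter, a 2.19-fold higher value, and the largest with each ligand. It was the only 1 of 4 sites with TRIM24 listed with both ligands that was at least 2-fold higher with R1881, where 5.94% of all TRIM24 sites listed with both were, and 0 were at least 2-fold lower, where 1.65% of all were. TRIM28 at the same site had 14.7 and 12.6. BORCS6, a subunit of the complex that positions lysosomes, had a site 3.87 kb downstream of its start and 0.860 kb upstream of that of MIR3676, with 25.8 and 39.6 TRIM24 tags and 9.1 TRIM28 tags with ethanol. TRIM28 was not listed there with R1881. Over the tag density of the surrounding 10 kb, TRIM24 stood 39.5-fold and 86.4-fold higher at PRMT5 and 7.50-fold and 7.78-fold higher at BORCS6 with ethanol and R1881. Repeated words made up 27.8% of the words at PRMT5 and 15.4% at BORCS6, so reads of other places can be counted there. Among the 4 sites with TRIM24 listed with both ligands, only CRBN had no repeated word. Its TRIM24 log2 ratio of R1881 over ethanol was -0.06. Whether the ratio at PRMT5 depends on the repeated words was not tested.

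Of the 541 sites, 3 (0.555%, 0.189 to 1.62) were in all 4 lists, against 1446 of all merged sites (1.95%), and the 3 were at promoters. Beside PRMT5 they were CRBN and a site on chromosome 15. CRBN, the substrate receptor of a ubiquitin ligase, had 12.1 and 11.6 TRIM24 tags and 10.3 and 7 TRIM28 tags with ethanol and R1881. The chromosome 15 site had 12.1, 7.8, 9.1 and 8.4 in the same order. It lay 1.52 kb from the start of AC026495.1, and its nearest coding start, that of GOLGA6L6, was 185 kb away. The remaining TRIM24 sites with a match had at most 12.1 normalized tags. They included the promoter of PLXNA2, a semaphorin receptor (7.8 with R1881, with TRIM28 at 6 and 10.5). Sites at LAG3 and EFNA3 were promoters only by an annotated start other than that of a protein-coding transcript. The site at LAG3, an immune checkpoint receptor (7 with R1881, with TRIM28 at 15.5 and 12.6), lay 6.50 kb from its nearest coding start. The site at EFNA3, an ephrin ligand (7.8 with R1881, with no TRIM28), lay 7.46 kb from its nearest coding start. Intergenic sites included one 40.3 kb from IREB2, an iron-regulatory protein, with 12.1 for TRIM24 with ethanol and 4.8 and 10.5 for TRIM28. An intronic site 94.6 kb from the nearest coding start, that of ADAMTSL3, also had 12.1 for TRIM24 with ethanol and was in no other list.

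TRIM28 values with and without R1881 lay close to each other at the sites listed with both ligands. There were 163 such sites, 30.4% (26.6 to 34.4) of the 537 with TRIM28, against 30.6% of all TRIM28 sites. The median log2 ratio of R1881 over ethanol was 0.11 (95% interval of the median 0.04 to 0.18), and 0.08 over all 21502 TRIM28 sites listed with both. The value was higher with R1881 at 99 sites, lower at 63 and equal at 1. Over all 21502 sites it was higher at 12197, lower at 8914 and equal at 391, so more sites were higher there as well. At least 2-fold higher were 5 sites (3.07%), where 2.54% of all TRIM28 sites listed with both were, and 0 were at least 2-fold lower, where 0.832% of all were. These shares are near the background.

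The 5 sites past 2-fold had their nearest coding start at HMGXB3, an HMG-box gene (4.4 normalized tags with ethanol and 14.1 with R1881), LRRC49 (5.2 and 11.9), MTRNR2L6, 202 kb away (4 and 9.1), IREB2 (4.8 and 10.5) and KIF2A, a microtubule depolymerizing motor 372 kb away (4.8 and 9.8). All began at or under 5.2 normalized tags with ethanol, close to the lowest value of 4. The lowest ratios were at the sites nearest to SHANK2, a postsynaptic scaffold (11.1 and 5.6), VPS18, a vesicle tethering subunit (9.9 and 5.6), and DNAJC22, a co-chaperone (17.1 and 9.8), none of them 2-fold.

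**Figure D5:**
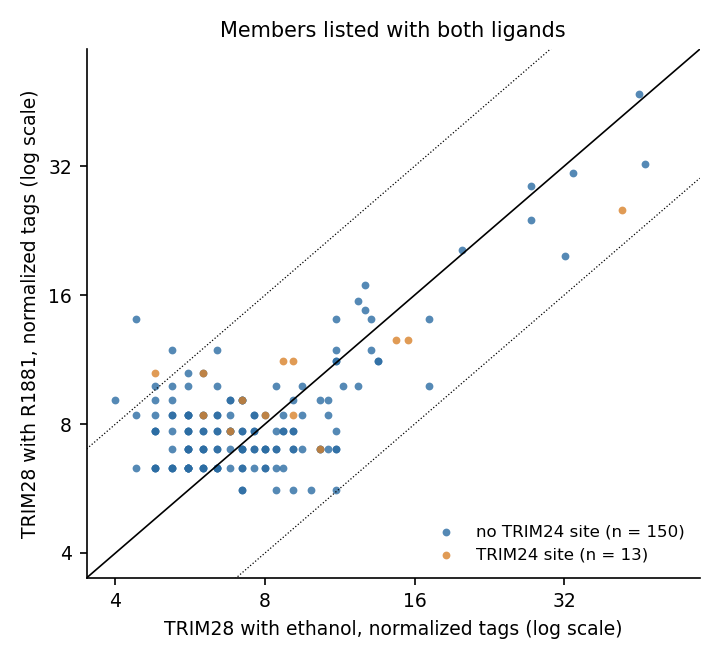
Each point is 1 of the 163 sites with TRIM28 listed with both ligands, with normalized tags with ethanol on the horizontal axis and with R1881 on the vertical axis, both on log scales. Orange points also have a TRIM24 site, the solid line marks equal values and the dotted lines a 2-fold difference, and 5 points lie past the upper dotted line and 0 past the lower.

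The number of listed sites differed more than the strength. TRIM28 sites with a match numbered 438 with ethanol and 262 with R1881, a ratio of 0.598, while all TRIM28 sites gave 0.592. The ethanol library holds more tags, and at a common minimum of 7.75 normalized tags the numbers were 99 and 93, a ratio of 0.939 against 0.902 for all. For TRIM24 they were 13 and 15, and 13 and 9 at the common minimum, whereas all TRIM24 sites gave 4953 and 9003, and 4751 and 7440. TRIM28 was listed with ethanol only at 275 of the 541 sites (50.8%, against 48.8% of all merged sites) and with R1881 only at 99 (18.3%, against 17.1%). These had medians of 5.6 and 7 normalized tags, under those of the sites listed with both (7.2 and 7.7). All TRIM28 sites had the same order, with 6 and 7 under 8 and 8.4.

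The sites with a match were at promoters less often than merged sites as a whole. Promoters, taken as 2 kb on either side of any annotated transcription start site (TSS), held 118 of the 541 sites (21.8%, 18.5 to 25.5), against 33.3% of all merged sites and 30.7% of TRIM28-only sites. With the starts of protein-coding transcripts alone, the share was 6.65% (4.85 to 9.07) against 23.3% of all. Intergenic sequence held 197 sites (36.4%, 32.5 to 40.6), against 26.1% of all, and introns 208 (38.4%, 34.4 to 42.6), against 37.8%. There were 9 sites in 3′UTRs, 3 in coding exons, 6 in exons of noncoding transcripts and 0 in 5′UTRs. The median distance to a coding TSS was 25.9 kb, against 22.9 kb for all merged sites, and 26.1% of the sites against 36.3% of all lay within 10 kb of one. Sites with TRIM28 in R1881 only were at promoters in 15.2% (9.40 to 23.5), those with both ligands in 23.9% (18.0 to 31.0), and these intervals overlapped.

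Chromosomes differed in how many of their sites held a match. Chromosome 15 had 39 of 2710 sites (1.44%, 1.05 to 1.96), and 18 of 1920 (0.938%, 0.594 to 1.48) when only sites without repeated words were counted. Chromosomes 17 and 12 had 1.07% and 1.02%, and 1.08% and 1.22% without repeated words, so chromosome 15 was highest only with repeated sequence counted. Chromosome X had 1 of 805 sites (0.124%, 0.0219 to 0.700). It holds 142 of the 3533 matches, of which 0.704% (0.124 to 3.88) lay in a site, against 16.0% (14.8 to 17.3) on the autosomes. The cause of the low value on chromosome X was not tested.

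The CTCF consensus is not symmetric, so each match has an orientation. Neighbouring sites on the same chromosome were within 1 Mb of each other in 140 pairs, of which 71 had the consensus on the same strand, 38 had it on the plus strand and then on the minus strand in the order of the coordinates, and 31 had it on the minus and then on the plus strand. Within 100 kb there were 23 pairs, with 12, 6 and 5. Whether the 2 opposed orders differ in number was not tested.

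Lists of genes tied to CTCF, TRIM28 and androgen were looked up near these sites. Within 50 kb of the 16 genes of CTCF and cohesin there was 1 site, 8.22 kb from MAU2, which helps to load cohesin, with TRIM28 at 8 and 6.3 normalized tags, or 0.185% of the 541 against 0.147% of all merged sites. Of the 11 genes of KRAB partners and heterochromatin, CBX5, which encodes the heterochromatin protein HP1 alpha, had 1 site at 16.1 kb, with TRIM28 at 6.8 with ethanol, and the shares were again 0.185% and 0.147%. There were 0 sites near 21 imprinted genes, 60 clustered protocadherins, 52 HOX genes, 19 androgen-regulated genes and 9 factors of the androgen receptor pathway. Each count of 0 allows a share of up to 0.705% of the 541. All merged sites gave 88, 17, 43, 207 and 85 for these lists, at most 0.279% of them for any list, so these counts do not set the 541 apart.

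ZNF genes, which encode the zinc finger proteins to which KRAB factors belong, had 17 of the 541 sites within 50 kb (3.14%, 1.97 to 4.97), against 3.03% of all merged sites. The sites inside ZNF genes were in introns of ZNF609, ZNF236, ZNF362 and ZNF710, with 5.6 to 8.4 TRIM28 normalized tags and no TRIM24.

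The consensus of other factors of prostate cells was searched in the same 200 bp. The forkhead consensus of HOMER, with 0 mismatches, was at 2 of the 541 (0.370%, 0.101 to 1.34), against 0.950% of all merged sites. The androgen response element, with at most 1 mismatch, was at 3 (0.555%, 0.189 to 1.62), against 0.462%. Both intervals include the share of all sites. The median GC content of the 200 bp was 51% against 47.5% for all. Just outside the rule, the sites with 4 mismatches had a TRIM24 site in 8.78% and lay at promoters in 28.5%, while those with 3 mismatches gave 5.50% and 22.5%. The strongest of these were 13.0 kb from CNIH4 (26.6 and 39.4 TRIM28 normalized tags with ethanol and R1881), at a promoter 58.9 kb from PHETA1 (33.4 and 26) and 57.6 kb from SCAF8 (21.1 and 22.5).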

How the data were processed

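ChIP-seq of HA-TRIM24 and TRIM28 was measured in 4 samples of LNCaP cells, 1 per condition, grouped by the sample labels. Per the submitters' processing notes, the authors used BWA 0.6.1 and HOMER 4.1 on hg19. The authors called sites per sample. The file headers set a false discovery rate of 0.001, a 4-fold excess over the local 10 kb, a Poisson limit of 1e-04 and 1 tag per base, and name no input library. The authors' deposited signal is the normalized tag count, scaled to 10000000 tags. The deposited score and the deposited p-value were read but not used in a comparison. For the deposited focus ratio, a fraction, medians of the CTCF-match sites and of all sites were computed. With ethanol and R1881 they were 0.762 against 0.731 and 0.786 against 0.750 for TRIM28. For TRIM24 they were 0.812 against 0.789 and 0.750 against 0.771. The deposited fold over the local region, a ratio, served as an alternative measure of strength.

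Merged sites, consensus matches and positions relative to GENCODE release 44 on GRCh37 were computed from the lists and the genome, in Python 3.11.15 (pandas 2.3.3, numpy 2.4.6, numba 0.67.0, scipy 1.17.1, matplotlib 3.10.9). A merged site took the highest normalized tag count that any of its listed sites had in each list. Consensus sequences of CTCF, forkhead and the androgen response element came from the study's supplementary data. A merged site took the class of its centre, in the order promoter, 5′UTR, 3′UTR, coding exon, intron and intergenic. Named sites were those with the fewest mismatches, the 3 strongest of each list, those in all 4 lists, the 3 highest and 3 lowest TRIM28 ratios, those within 50 kb of the gene lists and the strongest at the limit of 3 mismatches. The sites at WDR18, DEGS2, HS6ST1, CFAP61, LRRIQ3, LAG3, PLXNA2, EFNA3, IREB2 and KIF2A and the copies on chromosome 15 were chosen after their values were seen. The sites and gene lists were chosen with earlier results of these data known. The scripts were tested on simulated data. Alternatives changed the mismatches, window, centre, merging, minimum strength, strength measure and promoter definition.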

Additional observations from a re-analysis of the deposited data

Results flagged for a closer look

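The number of listed CTCF-match sites moved in opposite directions between ligands for the 2 factors, with 1 sample of each condition. For TRIM24 the log2 ratio of R1881 over ethanol was 0.206 (13 and 15 sites), and for TRIM28 it was -0.741 (438 and 262 sites). All merged sites moved in the same directions, with 0.862 for TRIM24 and -0.757 for TRIM28, so the opposite directions do not set the CTCF-match sites apart. At the common minimum of 7.75 normalized tags both log2 ratios of the CTCF-match sites were negative (TRIM24 -0.53, TRIM28 -0.09). All merged sites then gave 0.647 and -0.148. Whether the factors differ was not tested.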

How the results depend on the processing

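Of 96 recomputed values, 68 stayed within the interval of the reported value, or for the number of sites within 1.5 times of it, and 28 did not. Of the 96, 20 were chosen after seeing the data (only sites with no repeated 32-base word, and the side of the centre under each setting). The number of sites with a match was 141 with 2 mismatches, 1600 with 4 mismatches, 269 in a 100 bp window, 162 at the common minimum of normalized tags and 277 in the stronger 50% of each list. The share with a TRIM24 site was 1.42% with 2 mismatches, 7.31% with 4, 11.1% at the common minimum (35.1% of all sites) and 2.53% in the stronger 50% (14.9% of all sites). The share with a TRIM28 site was 98.0% when sites were merged only if their centres lay within 50 bp, and 95.7% at the common minimum. The share of TRIM28 sites listed with both ligands was 17.5% under that merging, 24.5% at the common minimum and 24.4% in the stronger 50%, where all TRIM28 sites gave 17.4%, 31.3% and 29.6%. The median log2 ratio of R1881 over ethanol turned to -0.049 at the common minimum and was 0.22 with the fold over the surrounding 10 kb. The promoter share was 26.3% with 4 mismatches, 13.1% for promoters within 1 kb and 6.65% with protein-coding starts only, and the share in introns or intergenic sequence was 69.9%, 82.8% and 88.0%. The median strength percentile with the fold over 10 kb was 53.4 for TRIM28 with ethanol and 54.6 with R1881. The median distance from match to centre was 48 bp in a 400 bp window. The 5′ share was 61.7% with 2 mismatches and 70.2% at the common minimum. The share of genome matches in TRIM28 sites was 24.9% with 2 mismatches. With the fold over 10 kb, these TRIM28 percentiles passed from under 50 to over 50, as did that of TRIM24 with ethanol (62.6), and the both-ligand share passed that of all TRIM28 sites (30.6%) at 34.1% in the 100 bp window and 32.3% with 4 mismatches. The causes were not tested. No paired analysis was possible because each condition has 1 sample. Leaving out a replicate was not possible for the same reason. Depth limits which weak sites were listed, and the TRIM28 ethanol library holds the most tags.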
